A study of Rattus norvegicus with 6 samples.

Results

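The unfolded protein response set examined here comprised 34 genes, chosen by symbol and grouped by role into stress sensors with the transcription factor *Xbp1* (4 genes), chaperones and co-chaperones (11), disulfide isomerases (4), ER-associated degradation (9) and the translocon (6). The array annotation named 32 of them, and *Ern1* and *Derl3* were not named. All 32 were among the 9928 genes tested, of 14217 genes named on the array. RNA came from CD11b+CD163+ cells, read by the study as perivascular and meningeal macrophages, of adult male Sprague-Dawley rats with no transgene named. Controls were rats 63, 68 and 69, for which no sham operation is described. Rats 64, 65 and 66 underwent 1 h of right middle cerebral artery occlusion and were studied at 16 h of reperfusion. In both groups the right hemisphere was enzymatically dissociated, cells were sorted by flow cytometry, and each rat gave 1 Affymetrix rat genome array (n = 3 per group). No division of the hemisphere into injured and spared tissue is described for the sort.

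The endoplasmic reticulum (ER) folds proteins destined for secretion, membranes and lysosomes. When unfolded proteins accumulate there, the chaperone BiP (*Hspa5*) leaves the sensors ATF6, IRE1 (*Ern1*) and PERK (*Eif2ak3*), which become active. ATF6 is cut into a transcription factor, IRE1 splices *Xbp1* RNA into the form that encodes the active factor, and PERK phosphorylates eIF2α and slows translation. Their targets enlarge the folding, translocation and degradation capacity of the ER, and macrophages use the same machinery when they increase secretion.

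After ischemia, 17 of the 32 measured members rose at an adjusted p under 0.01 (limma), against 16.8% of all genes tested. The rises ran from 0.71 for *Ssr3* to 1.83 for *Creld2* on the log2 scale, a 1.64-fold to 3.56-fold change. In 12 of the 17 the log2 fold change was beyond 1, which 8.15% of all genes passed. No member fell at that threshold (0 of 32, against 5.99% of all genes), and 1, *Eif2ak3*, was lower at an unadjusted p under 0.05. The median log2 fold change was 0.73 over the members and 0.10 over all genes tested. In 23 members every ischemic rat lay above every control, as in 35.7% of all genes. In 1 member every ischemic rat lay below every control, against 1976 of all 9928 genes. In 8 members the groups overlapped, against 4405 of all genes.

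The roles did not share 1 pattern. All 6 translocon genes, 3 of 4 disulfide isomerases and 6 of 11 chaperones rose, whereas 1 of 8 measured genes of ER-associated degradation and 1 of 3 of the sensor group did. Their medians on the log2 scale were 0.99, 1.01, 0.74, 0.29 and 0.13, in the same order. The difference between roles was not tested.

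**Figure D1:**
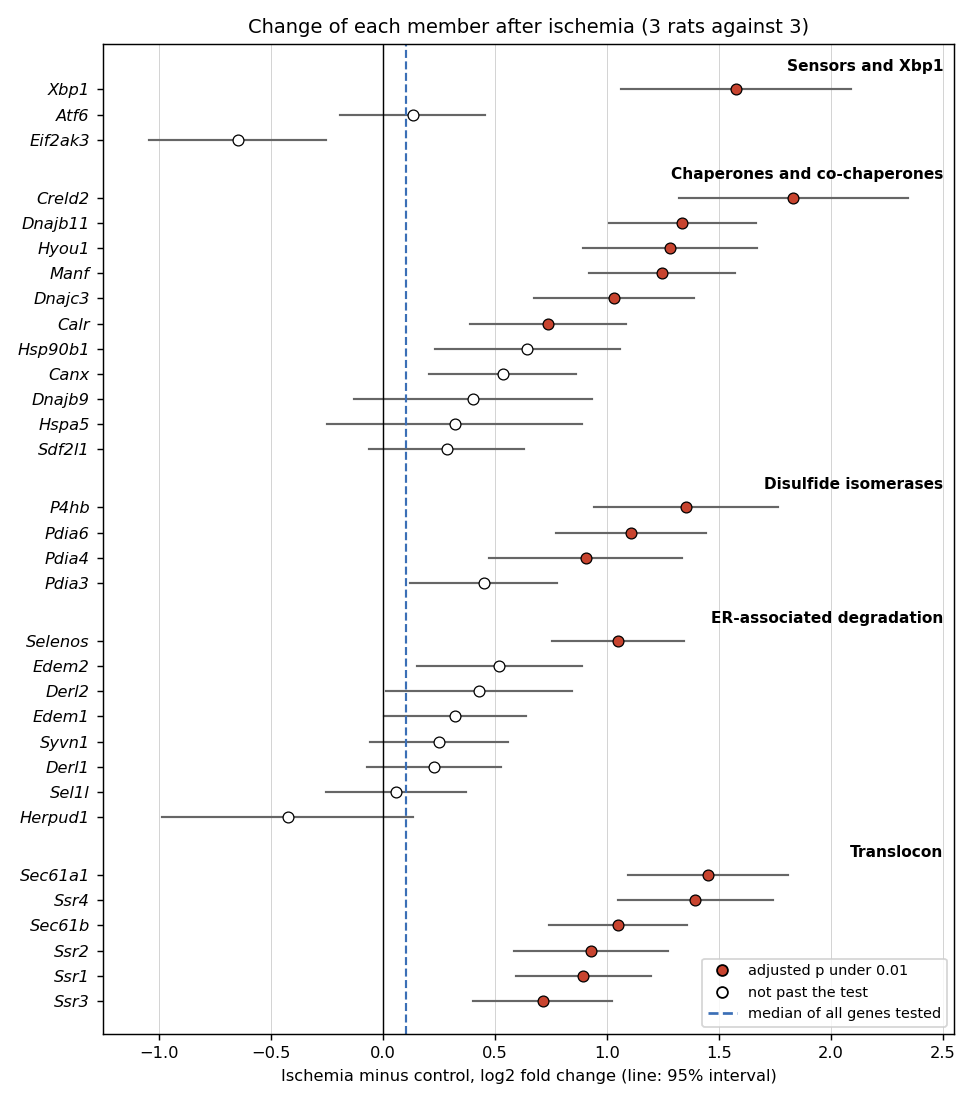
Log2 fold change (ischemia minus control) of the 32 measured members by role, with its 95% interval from limma (lines) and the median of all 9928 genes (0.10, dashed). Filled points passed an adjusted p under 0.01: the 6 translocon genes are all filled, and *Selenos* is the only filled point among the genes of ER-associated degradation.

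The adjusted p of the last member past the threshold was 0.00671 (*Pdia4*) and that of the first outside it was 0.0182 (*Canx*). The 95% interval of the log2 fold change lay above 0 in 23 members and included 0 in 8. Fold changes are relative to the scaling of the arrays. With arrays centred on 43 ribosomal protein genes, the median of all genes moved by -0.55 and that of the members to 0.17. Under that scaling 7 members rose, *Xbp1*, *Dnajb11*, *Creld2*, *Manf*, *P4hb*, *Sec61a1* and *Ssr4*. Of all 9928 genes 371 rose, against 1664 as deposited, and 12.7% of all calls were rises in place of 73.7%. The median of the members lay 0.62 above that of all genes under both scalings. That equality is fixed by construction, because the centring shifts every gene of an array equally, so it is no check on the difference. With quantile normalization repeated, the median of all genes moved by -0.12 and 55.7% of all calls were rises.

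Values of the 47 probe sets that name a member were compared where a gene had several. For 10 members more than 1 probe set was present, and of the 14 others kept by the low-signal filter, 13 were higher in every ischemic rat than in every control and 1, of *Atf6*, overlapped. The probe set of highest mean was used throughout. Levels of different probe sets are not directly comparable, so changes are described as differences between rats. Rankings by mean, the background level and the summed marker levels do set probe sets side by side and give only a rough guide.

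**Figure D2:**
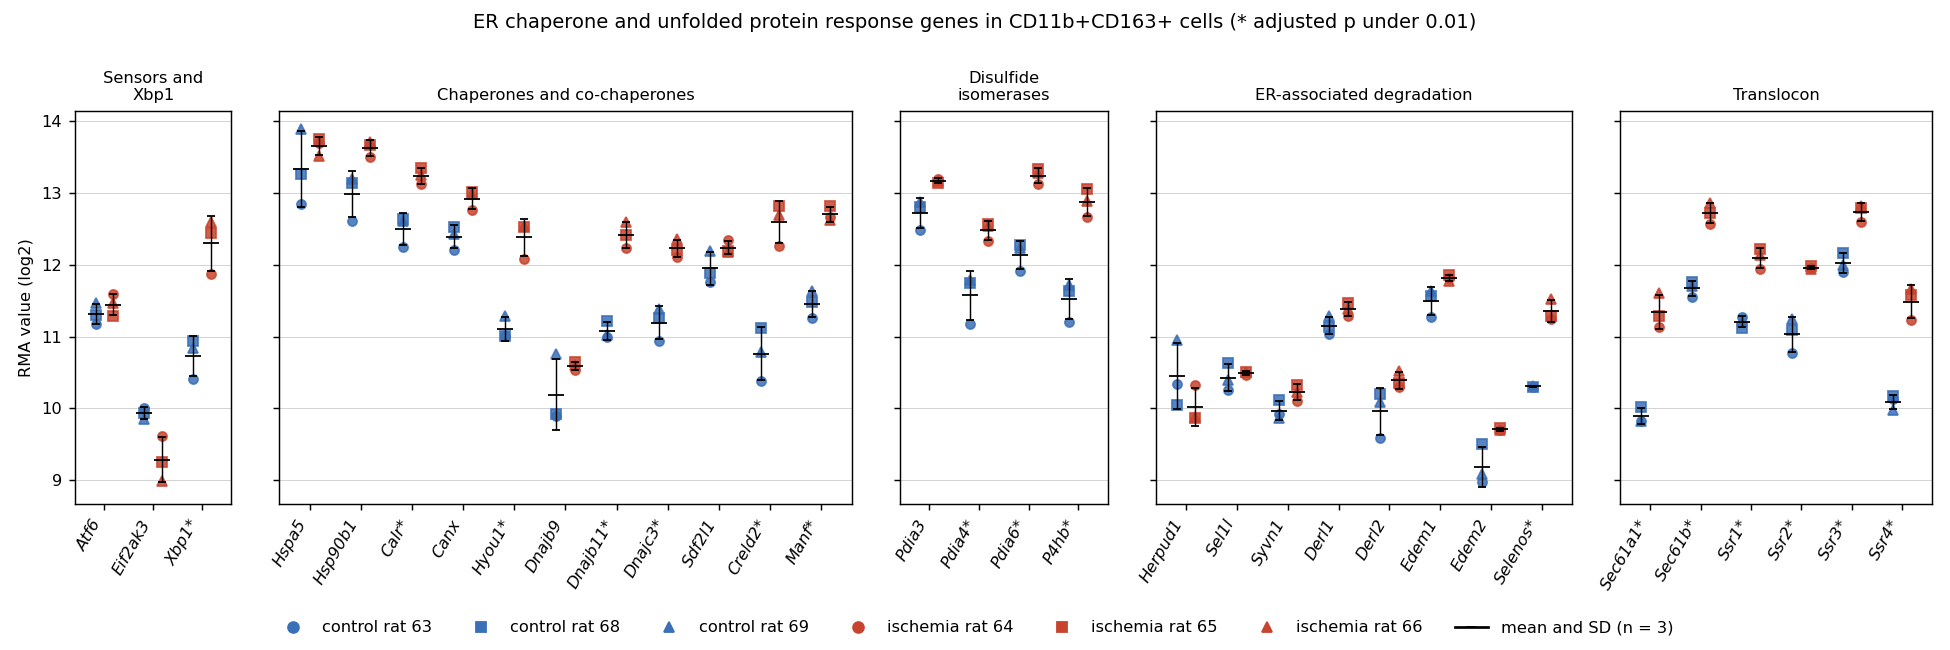
Deposited RMA values (log2) of the 32 measured members in each rat, with mean and SD (n = 3), by role. Controls are blue and ischemic rats red, a star marks an adjusted p under 0.01, and heights are comparable only within a gene. For all 17 starred genes the red points lie wholly above the blue ones. In *Hspa5* and *Dnajb9* the point of control rat 69 lies above all red points.

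Promoters were read because many of these genes share an ER stress response element (ERSE), to which NF-Y, ATF6 and XBP1 bind. A RefSeq window (build GRCr8) from 250 bases before to 50 after the start site was available for 27 members. *Atf6*, *Ern1*, *Manf*, *Pdia3*, *Pdia6*, *Derl1* and *Sec61a1* had none here. The ERSE was searched on both strands as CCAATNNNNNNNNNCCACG, where N is any base, and was found in 8 of the 27 members (29.6%) and in 0.0657% of all 33469 windows. The shorter ERSE-II, ATTGGNCCACG, was found in 3 members (11.1%), *Dnajb11*, *Hyou1* and *Herpud1*, and in 0.0508% of all windows. ATTGG is the reverse complement of CCAAT, so the motifs share both parts, but 0 members held both. The UPRE core TGACGTGG was found in 0.595% of all windows and in 1 member, *Hyou1*, where it overlapped an ERSE-II.

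The windows of 3 members are given upstream of the start site, with ERSE matches in capitals. *Hspa5* is the gene in which the element is best known, *Creld2* had the largest rise, and *Ssr4* rose with no match. Positions are counted from the start site, with -1 the base before it.
Hspa5, chr3:38452766-38453015, plus strand, -250 to -1: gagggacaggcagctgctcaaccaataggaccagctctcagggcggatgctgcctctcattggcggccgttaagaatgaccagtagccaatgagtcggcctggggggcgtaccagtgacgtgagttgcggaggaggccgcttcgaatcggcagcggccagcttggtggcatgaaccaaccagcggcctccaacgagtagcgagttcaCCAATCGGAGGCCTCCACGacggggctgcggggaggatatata
Creld2, chr7:121789134-121789383, plus strand, -250 to -1: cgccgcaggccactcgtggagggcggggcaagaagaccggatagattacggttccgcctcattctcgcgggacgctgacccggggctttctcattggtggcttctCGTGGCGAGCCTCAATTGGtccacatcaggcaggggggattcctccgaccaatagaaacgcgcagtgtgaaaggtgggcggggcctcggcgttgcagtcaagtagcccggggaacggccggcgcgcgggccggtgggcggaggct
Ssr4, chrX:156675408-156675657, plus strand, -250 to -1: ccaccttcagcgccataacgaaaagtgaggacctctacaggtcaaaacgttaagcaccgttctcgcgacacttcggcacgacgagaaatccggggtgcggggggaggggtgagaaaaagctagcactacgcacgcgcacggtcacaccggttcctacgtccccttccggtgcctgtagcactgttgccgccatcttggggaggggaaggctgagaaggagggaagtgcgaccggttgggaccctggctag
In *Hspa5* the element ran from -43 to -25, in *Creld2* it lay on the opposite strand from -145 to -127, and *Ssr4* held neither the ERSE nor the ERSE-II.

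For the other members with a match wholly upstream of the start site, the match nearest to it is given with 12 bases on each side, in capitals. They show the fixed parts at both ends of the element and the spacer between them.
Xbp1, chr14:84604546-84604588, plus strand, -77 to -35: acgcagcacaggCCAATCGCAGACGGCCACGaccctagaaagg
Dnajc3, chr15:102432522-102432564, plus strand, -145 to -103: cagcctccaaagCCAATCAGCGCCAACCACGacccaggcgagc
Calr, chr19:40213123-40213165, plus strand, -244 to -202: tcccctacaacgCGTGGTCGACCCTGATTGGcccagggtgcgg
Hsp90b1, chr7:23012335-23012377, minus strand, -84 to -42: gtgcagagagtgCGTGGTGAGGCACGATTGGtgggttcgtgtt
Canx, chr10:35158057-35158099, minus strand, -242 to -200: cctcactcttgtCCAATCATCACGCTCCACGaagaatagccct
Derl3, chr20:12766589-12766631, minus strand, -166 to -124: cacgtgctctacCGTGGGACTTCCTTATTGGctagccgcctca
Hyou1, chr8:53602782-53602816, plus strand, -100 to -66: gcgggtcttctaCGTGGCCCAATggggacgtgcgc
Herpud1, chr19:10614809-10614843, minus strand, -136 to -102: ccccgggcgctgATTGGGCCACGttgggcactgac
In *Dnajb11* the match ran from -10 to 1, across the start site. Matches on the opposite strand read as CGTGG first. *Hsp90b1* and *Hyou1* each held a second match farther upstream.

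Both kinds of promoter were present among genes that rose. Of the 10 measured members with an ERSE or ERSE-II, 6 rose (*Xbp1*, *Creld2*, *Dnajb11*, *Hyou1*, *Dnajc3* and *Calr*). The other 4 (*Hspa5*, *Hsp90b1*, *Canx* and *Herpud1*) did not pass. The 10 had a median log2 fold change of 0.89. Of the 16 members with a window and neither motif, 8 rose, with a median of 0.62. A match describes these letters only, and the difference between these sets was not tested.

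**Figure D3:**
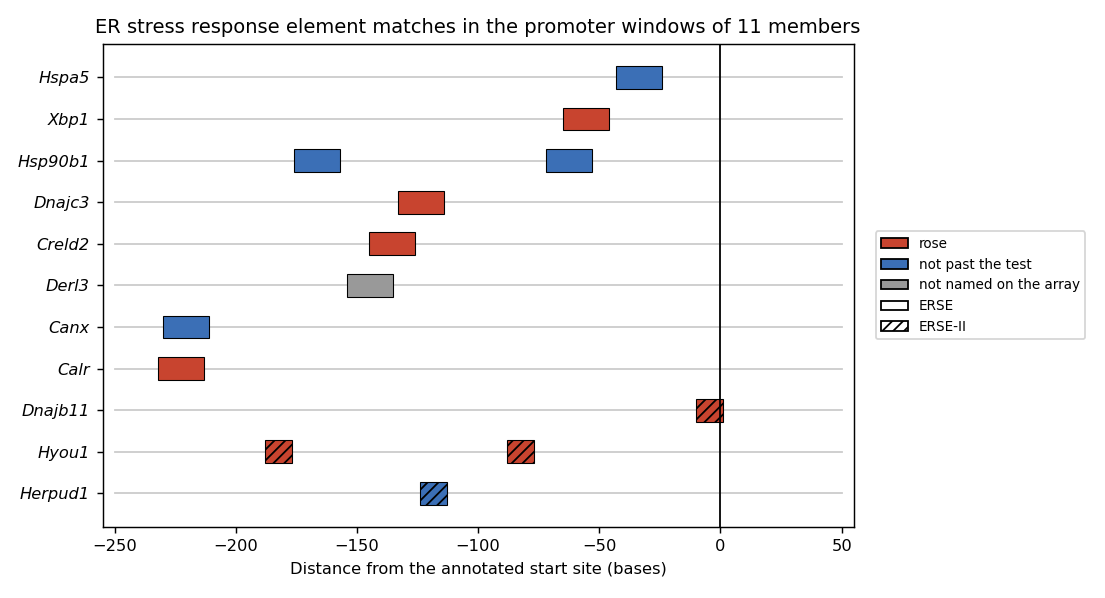
Position of ERSE (plain) and ERSE-II (hatched) matches in the promoter windows of 11 members, as distance from the start site in bases. Colour gives the change after ischemia: red rose, blue not past the test, grey not named on the array. Red and blue bars are mixed, and *Hspa5*, blue, has the ERSE nearest to the start site.

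Among the sensors and their transcription factor, *Xbp1* rose. Its values were 10.41, 10.93 and 10.84 in control rats 63, 68 and 69 and 11.87, 12.45 and 12.59 in ischemic rats 64, 65 and 66. The log2 fold change was 1.58 (adjusted p = 0.0015, SE 0.22), 2.98-fold, and the lowest ischemic rat, 64, lay well above the highest control, 68. The array gives 1 level for the gene and no reading of its splicing.

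*Eif2ak3*, which encodes PERK, was lower in every ischemic rat than in every control. Values were 10.01, 9.94 and 9.85 in the controls and 9.61, 9.26 and 8.99 after ischemia, with a log2 fold change of -0.65 (adjusted p = 0.0184, SE 0.17). The difference was not past the threshold. Without ischemic rat 64, the highest of its group, it was -0.81 (adjusted p = 0.00518). *Atf6* was 11.17, 11.30 and 11.46 in the controls and 11.59, 11.29 and 11.46 after ischemia. Its groups overlapped, and the log2 fold change was 0.13 (adjusted p = 0.472, SE 0.14), with a 95% interval from -0.19 to 0.46 and the opposite sign in its other probe set (-0.069), under ribosomal centring (-0.42), with quantile normalization repeated (-0.040) and with array weights (-0.026).

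The chaperones split into a group that rose and a group, led by *Hspa5* itself, that did not pass. *Creld2*, an ER-stress-inducible protein with disulfide isomerase activity, was 10.39, 11.12 and 10.78 in the controls and 12.26, 12.82 and 12.70 after ischemia. Its log2 fold change was 1.83 (adjusted p = 0.000908, SE 0.22), the largest of the members. Every ischemic rat exceeded the highest control, 68, by more than 1 log2 unit. *Manf*, which binds BiP and is secreted, was 11.26, 11.48 and 11.63 in the controls and 12.66, 12.81 and 12.63 after ischemia, with a log2 fold change of 1.25 (adjusted p = 0.000713, SE 0.14). Its 3 ischemic rats lay close together and apart from the controls.

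Of the co-chaperones of BiP, *Hyou1*, *Dnajb11* and *Dnajc3* rose. *Hyou1* (GRP170), which exchanges the nucleotide of BiP, was 11.01, 11.00 and 11.29 in the controls and 12.08, 12.53 and 12.54 after ischemia. The log2 fold change was 1.28 (adjusted p = 0.00119, SE 0.17), and 1.31 in its other probe set. The J-domain protein *Dnajb11* (ERdj3), which delivers unfolded clients to BiP, was 11.00, 11.22 and 11.02 in the controls and 12.24, 12.41 and 12.59 after ischemia, and the log2 fold change was 1.34 (adjusted p = 0.000594, SE 0.14). *Dnajc3* (p58IPK), a J-domain protein also known as an inhibitor of PERK, was 10.94, 11.26 and 11.38 in the controls and 12.12, 12.21 and 12.36 after ischemia, and the log2 fold change was 1.03 (adjusted p = 0.00189, SE 0.15). In each of these genes ischemic rat 64 was the lowest of its group and still above every control.

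*Hspa5*, the ER Hsp70 on which these proteins act, was 12.84, 13.27 and 13.89 in control rats 63, 68 and 69 and 13.70, 13.75 and 13.51 in ischemic rats 64, 65 and 66. Control rat 69 lay above all ischemic rats and control rat 63 was the lowest of the 6. The log2 fold change was 0.32 (adjusted p = 0.327, SE 0.25), with a 95% interval from -0.25 to 0.89. The controls' SD was 0.53, the largest among the members, whose median control SD was 0.20. Without control rat 69 the log2 fold change was 0.60 (adjusted p = 0.0413), and under ribosomal centring the sign turned (-0.23).

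*Dnajb9* (ERdj4), another J-domain partner of BiP, resembled *Hspa5* and is named for that after its values were seen. It was 9.89, 9.92 and 10.76 in the controls and 10.53, 10.64 and 10.60 after ischemia. Control 69 was again the highest of the 6 rats. The log2 fold change was 0.40 (adjusted p = 0.195, SE 0.23), 0.68 without control rat 69 (adjusted p = 0.0113) and -0.15 under ribosomal centring. *Sdf2l1*, which keeps ERdj3 complexes soluble, differed by 0.29 (adjusted p = 0.16, SE 0.15), with overlapping groups and a sign that turned under ribosomal centring (-0.27).

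The lectin chaperones and the ER Hsp90 were higher in every ischemic rat than in every control, by smaller amounts. Calreticulin (*Calr*) was 12.25, 12.64 and 12.61 in the controls and 13.12, 13.35 and 13.26 after ischemia, and rose by 0.74 (adjusted p = 0.00648, SE 0.15). Its call was lost on leaving out any 1 rat other than ischemic rat 64 (log2 fold change 0.61 to 0.81, adjusted p 0.0131 to 0.0331). Calnexin (*Canx*), its membrane-bound counterpart, was 12.21, 12.52 and 12.43 in the controls and 12.76, 13.02 and 12.99 after ischemia. The difference of 0.53 (adjusted p = 0.0182, SE 0.14) was not past the threshold and was -0.018 under ribosomal centring. *Hsp90b1* (GRP94), which folds integrins and Toll-like receptors, was 12.61, 13.14 and 13.20 in the controls and 13.50, 13.67 and 13.72 after ischemia. Its groups did not overlap, and the difference of 0.64 (adjusted p = 0.0222, SE 0.18) was not past the threshold.

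Disulfide isomerases form and rearrange the disulfide bonds of secreted proteins. *P4hb* (PDI), also a subunit of the collagen prolyl hydroxylase, was 11.21, 11.63 and 11.72 in the controls and 12.67, 13.06 and 12.89 after ischemia, and rose by 1.35 (adjusted p = 0.00119, SE 0.18). *Pdia6* was 11.91, 12.27 and 12.23 in the controls and 13.13, 13.33 and 13.27 after ischemia, and rose by 1.11 (adjusted p = 0.00117, SE 0.15). In both genes all ischemic rats lay above all controls by a margin wider than either group's range.

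*Pdia4* (ERp72) was 11.18, 11.75 and 11.79 in the controls and 12.33, 12.57 and 12.54 after ischemia, and rose by 0.90 (adjusted p = 0.00671, SE 0.19). Without any 1 rat other than ischemic rat 64 the change of *Pdia4* was 0.71 to 1.01 with an adjusted p from 0.0101 to 0.0298. *Pdia3* (ERp57), the isomerase that works with calnexin and calreticulin, was 12.48, 12.80 and 12.88 in the controls and 13.20, 13.13 and 13.17 after ischemia. The groups did not overlap and the difference of 0.45 (adjusted p = 0.0352, SE 0.14) was not past the threshold. A dimmer probe set of *Pdia3* gave 0.74 (adjusted p = 0.00274 when it stood for the gene), and the sign turned under ribosomal centring (-0.10).

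In ER-associated degradation, by which misfolded proteins are returned to the cytosol for the proteasome, *Selenos* was the only gene to rise. *Selenos*, a selenoprotein that links derlins to the ATPase p97, was 10.30, 10.30 and 10.32 in the controls and 11.25, 11.29 and 11.52 after ischemia. The log2 fold change was 1.05 (adjusted p = 0.000911, SE 0.13), and the controls' SD was 0.012, the smallest among the members.

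The mannosidase-like *Edem2*, which starts the trimming that marks glycoproteins for disposal, was 8.98, 9.50 and 9.08 in the controls and 9.69, 9.73 and 9.70 after ischemia, a difference of 0.52 (adjusted p = 0.0321, SE 0.16). *Edem1*, which delivers them, was 11.28, 11.56 and 11.64 in the controls and 11.82, 11.86 and 11.77 after ischemia, a difference of 0.32 (adjusted p = 0.0961, SE 0.14). *Derl2*, a derlin of the retrotranslocation complex, was 9.59, 10.21 and 10.09 in the controls and 10.29, 10.36 and 10.52 after ischemia, a difference of 0.43 (adjusted p = 0.0907, SE 0.18). In these 3 genes all ischemic rats were above all controls without passing the test, and under ribosomal centring each sign turned (-0.032, -0.23 and -0.12). Other probe sets of *Edem1* gave 0.61 and 0.71, and that of *Derl2* gave 1.01.

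*Derl1*, a relative of *Derl2*, was 11.04, 11.14 and 11.28 in the controls and 11.28, 11.47 and 11.38 after ischemia. The highest control equalled the lowest ischemic rat to 2 decimals, and the difference was 0.23 (adjusted p = 0.19, SE 0.13), with 0.61 and 0.69 in its other probe sets and -0.32 under ribosomal centring. The ubiquitin ligase HRD1 (*Syvn1*) and its partner *Sel1l*, the core of the complex, differed by 0.25 and 0.06 (adjusted p = 0.163 and 0.746). Both overlapped and both turned sign under ribosomal centring (-0.30 and -0.49). *Sel1l* also did with quantile normalization repeated (-0.12) and without control rat 63 (-0.024).

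*Herpud1*, a stress-inducible adaptor of the HRD1 complex whose promoter window holds an ERSE-II, was the only member of this role with a lower mean after ischemia. It was 10.34, 10.05 and 10.95 in the controls and 10.33, 9.86 and 9.88 after ischemia. Control 69 was the highest of the 6 rats, as in *Hspa5* and *Dnajb9*. The difference was -0.42 (adjusted p = 0.193, SE 0.24), and -0.17 without control rat 69. These 3 genes were the members whose control SD exceeded 0.4.

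The translocon genes rose throughout. *Sec61a1*, the channel through which new proteins enter the ER, was 9.83, 10.02 and 9.82 in the controls and 11.14, 11.29 and 11.60 after ischemia, and the log2 fold change was 1.45 (adjusted p = 0.000594, SE 0.16). Its second probe set gave 1.06, and a dim other one, under the low-signal filter, was lower after ischemia in all rats (-0.45). *Sec61b*, another subunit of the channel, was 11.55, 11.76 and 11.70 in the controls and 12.57, 12.72 and 12.86 after ischemia, and the log2 fold change was 1.05 (adjusted p = 0.00109, SE 0.13).

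The *Ssr* genes encode the translocon-associated protein (TRAP) complex, which assists the entry of particular signal sequences. *Ssr4* was 10.13, 10.17 and 9.98 in the controls and 11.23, 11.57 and 11.66 after ischemia, and the log2 fold change was 1.39 (adjusted p = 0.000611, SE 0.15). *Ssr1* was 11.28, 11.12 and 11.22 in the controls and 11.94, 12.22 and 12.14 after ischemia, and the log2 fold change was 0.89 (adjusted p = 0.0017, SE 0.13). In both genes all ischemic rats stood apart from the controls. *Ssr2* was 10.77, 11.09 and 11.24 in the controls and 11.96, 11.98 and 11.94 after ischemia, and the log2 fold change was 0.93 (adjusted p = 0.00246, SE 0.15). *Ssr3* rose by 0.71 (adjusted p = 0.00467, SE 0.14). The groups did not overlap in any of the 6 genes. Without ischemic rat 65, 3 of the 6 passed, *Sec61a1*, *Sec61b* and *Ssr4*, while *Ssr1* (0.84, adjusted p = 0.0115), *Ssr2* (0.92, adjusted p = 0.0136) and *Ssr3* did not. *Ssr3* also lost its call without control rat 63, control rat 69 or ischemic rat 66 (0.65 to 0.70, adjusted p 0.0140 to 0.0262 over the 4).

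Between rats, ischemic rat 64 was the lowest of its group in 15 of the 17 members that rose, and control rat 63 the lowest of its group in 24 of the 32 members measured. Against the control mean, the median difference over the 17 was 0.98 in rat 64, 1.19 in rat 65 and 1.19 in rat 66. Over the 17, the controls' medians were -0.20, 0.11 and 0.10 in rats 63, 68 and 69. Of all 9928 genes tested, rat 63 was the lowest control in 5940, and rat 64 was the lowest of its group in 3691 and the highest in 4028. The number of members that rose was 12 to 17 when 1 rat was left out, with the lowest count without ischemic rat 65. Of all 9928 genes, 681 rose without that rat, against 1664 with all rats.

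Genes that work with the members were counted from other lists of the same pathway, with percentages of all genes as above. Over all 9928 genes, 1664 rose, and 1006, 1110 and 985 without control rats 63, 68 and 69. Without ischemic rats 64, 65 and 66 the rises over all genes numbered 1564, 681 and 818. Under ribosomal centring 371 of all genes rose and 2558 fell. In the oligosaccharyltransferase, which attaches N-glycans as proteins enter through the translocon, all 11 genes rose, with a median log2 fold change of 0.83. Leaving out control rat 69, ischemic rat 65 or ischemic rat 66 gave 1 rise, with medians of 0.82, 0.81 and 0.79. The count was 4 without control rat 63, 7 without control rat 68 and 10 without ischemic rat 64. It was 1 under ribosomal centring and 7 with quantile normalization repeated. All 11 kept an unadjusted p under 0.05 whichever rat was left out. *Ostc* rose by 1.46 (adjusted p = 0.000427, SE 0.14), *Tusc3* by 1.29, *Krtcap2* by 0.86 and *Rpn2* by 0.85. Of 28 genes of protein targeting and translocation other than the members, 14 rose. Without 1 rat the count was 6 (ischemic rat 65), 7 (ischemic rat 66), 8 (control rat 63 or 69) or 9 (control rat 68). Under ribosomal centring it was 0 (5 higher at an unadjusted p under 0.05, limma) and 2 fell. The 14 included the signal recognition particle subunit *Srp19* (1.13), its receptor's subunit *Srprb* (1.11), the signal peptidase subunit *Sec11c* (1.14) and *Emc6* (1.28) of the ER membrane complex. *Spcs1* (0.21) and *Emc4* (0.48), of highest mean among the rest, were not past the test.

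Of 29 other ER folding enzymes, 11 rose. The count was 3 without ischemic rat 65, 5 without ischemic rat 66 and 6 without any 1 control rat. It was 7 with quantile normalization repeated and 17 at an adjusted p under 0.05. Under ribosomal centring 2 rose and 4 fell, against 371 and 2558 of all 9928 genes. *Fkbp11*, a prolyl isomerase, rose by 2.01 (adjusted p = 0.000682, SE 0.23), more than any member. *Ero1a*, which reoxidizes PDI, rose by 1.67, *Txndc5* by 1.10 and the glucosidase *Mogs* by 0.90. *Erp29* (-0.13) and *Fkbp2* (0.44) were not past the test. Of 20 genes of ER exit, 6 rose, among them *Surf4* (1.31), *Sec23b* (1.06), *Lman1* (1.03) and *Sec13* (0.96), whereas *Tmed10* (0.44) and the retrieval receptor *Kdelr1* (-0.03) were not past the test. The count at the ER exit was 3 without control rat 69, ischemic rat 65 or ischemic rat 66, 4 without control rat 63, 10 with array weights, 12 at an adjusted p under 0.05 and 0 under ribosomal centring (6 higher at an unadjusted p under 0.05, limma). Of 21 other genes of ER-associated degradation, 6 rose, led by *Rhbdd1* (1.21), *Nploc4* (0.88), *Ubxn4* (0.78) and *Vcp* (0.71). The lectin *Os9* (-0.20) and the ligase *Rnf139* (0.07) were not past the test. In that list limma called 0 rises without ischemic rat 65 or 66 (6 and 8 higher at an unadjusted p under 0.05), 1 without control rat 68, 2 without control rat 63, 4 without control rat 69, and 3 with quantile normalization repeated. Under ribosomal centring it called 0 rises (1 at an unadjusted p under 0.05) and 3 falls.

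Among 13 other regulators, 4 rose. Only 1, *Rtcb*, rose without control rat 63 or 69 or ischemic rat 65 or 66, and 2 without control rat 68. Under ribosomal centring 0 rose (2 higher at an unadjusted p under 0.05, limma) and 1 fell, against 371 and 2558 of all 9928 genes. The ligase that rejoins *Xbp1* RNA after IRE1 cuts it, *Rtcb*, rose by 1.17 (adjusted p = 0.00103, SE 0.15). *Bak1*, a pro-apoptotic protein that also binds IRE1, rose by 1.06, *Creb3l2* by 0.92 and *Atf6b*, the relative of *Atf6*, by 0.81. *Tmbim6* (0.10) and *Creb3* (0.42) were not past the test. In the PERK-ATF4 branch, 6 of 17 genes rose and 1 fell, with a median of 0.08 that was negative without control rat 63 (-0.11) or ischemic rat 64 (-0.039). Under ribosomal centring 1 rose and 5 fell, and falls numbered 4 with quantile normalization repeated or array weights, 5 at an adjusted p under 0.05 and 2 without ischemic rat 64. Rises numbered 4 without control rat 68 or ischemic rat 65. Asparagine synthetase (*Asns*) rose by 1.72, *Eif2s1*, which encodes the PERK substrate eIF2α, by 1.36, and *Ddit4* by 1.12. *Vldlr*, a lipoprotein receptor induced by ATF4 in other cells, fell by 2.03 (adjusted p = 0.000273, SE 0.17). *Atf3* (-0.77) and *Atf4* (0.13) were not past the test.

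**Figure D4:**
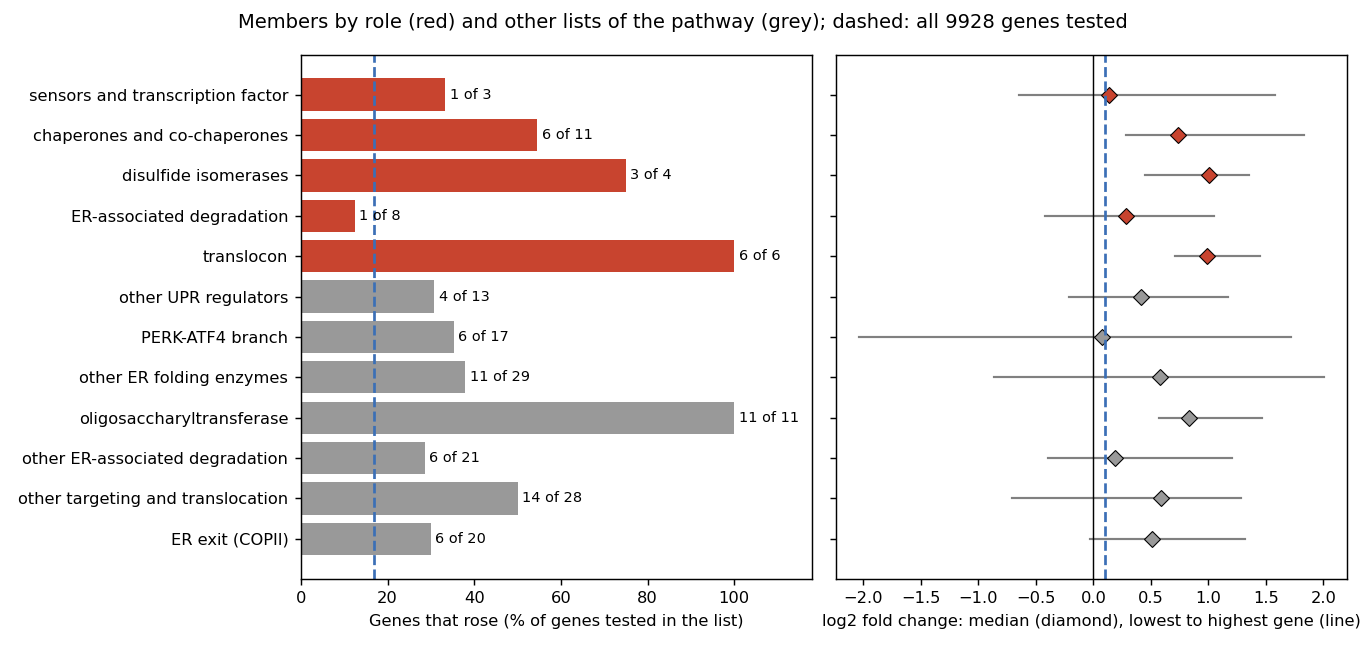
Left, share of tested genes that rose in each role (red) and in each other list of the pathway (grey), with counts and the share over all 9928 genes (16.8%, dashed). Right, median log2 fold change (diamond) and range (line) of each list, with the median of all genes (0.10, dashed). The translocon and the oligosaccharyltransferase stand at 100%. The 8 measured members of ER-associated degradation stand at 12.5% (1 gene), and the 21 other degradation genes at 28.6%. Without ischemic rat 65 the translocon count was 3 of 6 and the oligosaccharyltransferase count 1 of 11, while rises over all genes went from 1664 to 681. The oligosaccharyltransferase count was also 1 without control rat 69 or ischemic rat 66. Under ribosomal centring the counts were 2 of 6 and 1 of 11.

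Sorted cells are a bulk sample, in which fewer cells of a type and less RNA per cell cannot be told apart. Border-associated macrophage markers were present in all rats, with *Cd163*, *Mrc1* and *Lyve1* overlapping between groups. The log2 of the summed level of the 10 measured markers was 16.5 to 17.5 in the controls and 16.3 to 17.1 after ischemia, and limma called 0 of the 10 at an adjusted p under 0.01 (5 at an unadjusted p under 0.05, all lower). *Itgam*, which encodes the sorting antigen CD11b, rose by 2.24. Of 6 monocyte markers 5 rose, and the summed level of the 6 was at most 14.0 in the controls and at least 15.2 after ischemia. The largest rises were those of *Vcan* (6.76 to 13.5) and *Fn1* (7.51 to 13.5). The study lists both among the top genes up-regulated in its CD163+ cells. The other monocyte markers that rose were *Ly6c*, by 4.68 (adjusted p = 0.000969, limma), *Plac8*, by 1.31, and *Cd14*, by 0.91. *Ccr2* did not pass, with overlapping groups and a difference of 0.43 (adjusted p = 0.311, limma). Of 5 granulocyte markers tested 2 rose, with a summed level of 9.91 to 10.3 against 10.7 to 11.8. By limma 4 of the 5 were at an unadjusted p under 0.05, all higher. In its purity check the study reports some granulocytes among the CD163+ cells sorted from ischemic brain. Of 8 oligodendrocyte markers 3 fell, with a summed level of 13.3 to 14.5 against 12.1 to 12.8. Of 6 microglial markers 1, *P2ry12*, fell, and the summed levels overlapped. Of 5 T and NK cell markers tested 1 rose (*Cd2*) and 2 fell (*Cd5* and *Cd7*), with a lower summed level after ischemia in all rats. *Cd7* had the highest control mean of that list, 10.9, against 7.82 after ischemia. *Cd3e*, *Cd3g*, *Nkg7*, *Gzmb* and *Klrd1* were under the low-signal filter. Of 7 astrocyte markers *Gfap* rose, of 4 neuronal markers *Gria2* fell, and of 5 endothelial markers limma called 0, with *Tek* lower at an unadjusted p under 0.05. Control rat 63 stood apart, with a summed endothelial level of 13.1, against 11.6 to 11.8 in the other rats. Its summed astrocyte level was 12.7, against 11.3 and 10.9 in control rats 68 and 69 and 11.8 to 12.2 after ischemia. Its macrophage sum was the lowest of the controls, 16.5 against 17.5 and 17.3. When 1 rat was left out, rises numbered 3 to 5 for the monocyte list (3 without control rat 68 or ischemic rat 65 or 66) and 1 to 3 for the granulocyte list, and falls numbered 1 to 3 for the oligodendrocyte list (1 without control rat 63 or 68 or ischemic rat 65). Over all 9928 genes, rises numbered 681 to 1564 and falls 166 to 816 when 1 rat was left out. Under ribosomal centring 6 of the border-associated macrophage markers fell, as did 2558 of all genes tested. The part of these lists in the changes of the members was not tested.

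Plasma cells hold much of this machinery, so their markers were read too. *Sdc1* rose by 7.21, from 5.35 to 12.6, and was the only one of the 4 B and plasma cell markers tested to rise. With *Sdc1* left out, which was decided after its values were seen, the summed level was 9.66 to 10.1 in the controls and 9.94 to 10.4 after ischemia. *Jchain*, *Mzb1*, *Tnfrsf17*, *Pou2af1* and *Ms4a1* were below the background level of 7.24 in every rat, the highest value being 6.59. The other 3 markers, *Cd79b*, *Blk* and *Prdm1*, were above it in every rat. *Prdm1*, a plasma cell factor also found in other leukocytes, was 7.91 in the controls and 9.25 after ischemia, a difference of 1.34 (adjusted p = 0.0286, SE 0.40) with overlapping groups. Without control rat 69 limma called 2 of the list. All 32 members were above that level in every rat. Probe sets for the 3′ and 5′ ends of actin differed by 0.06 to 0.07 in the controls and by 0.17 to 0.24 after ischemia, and those of GAPDH by 0.52 to 0.65 and by 0.75 to 0.80. The array of control rat 63 had a highest value of 13.8, against 14.9 to 15.0 on the others. Their part in the changes was not tested.

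**Figure D5:**
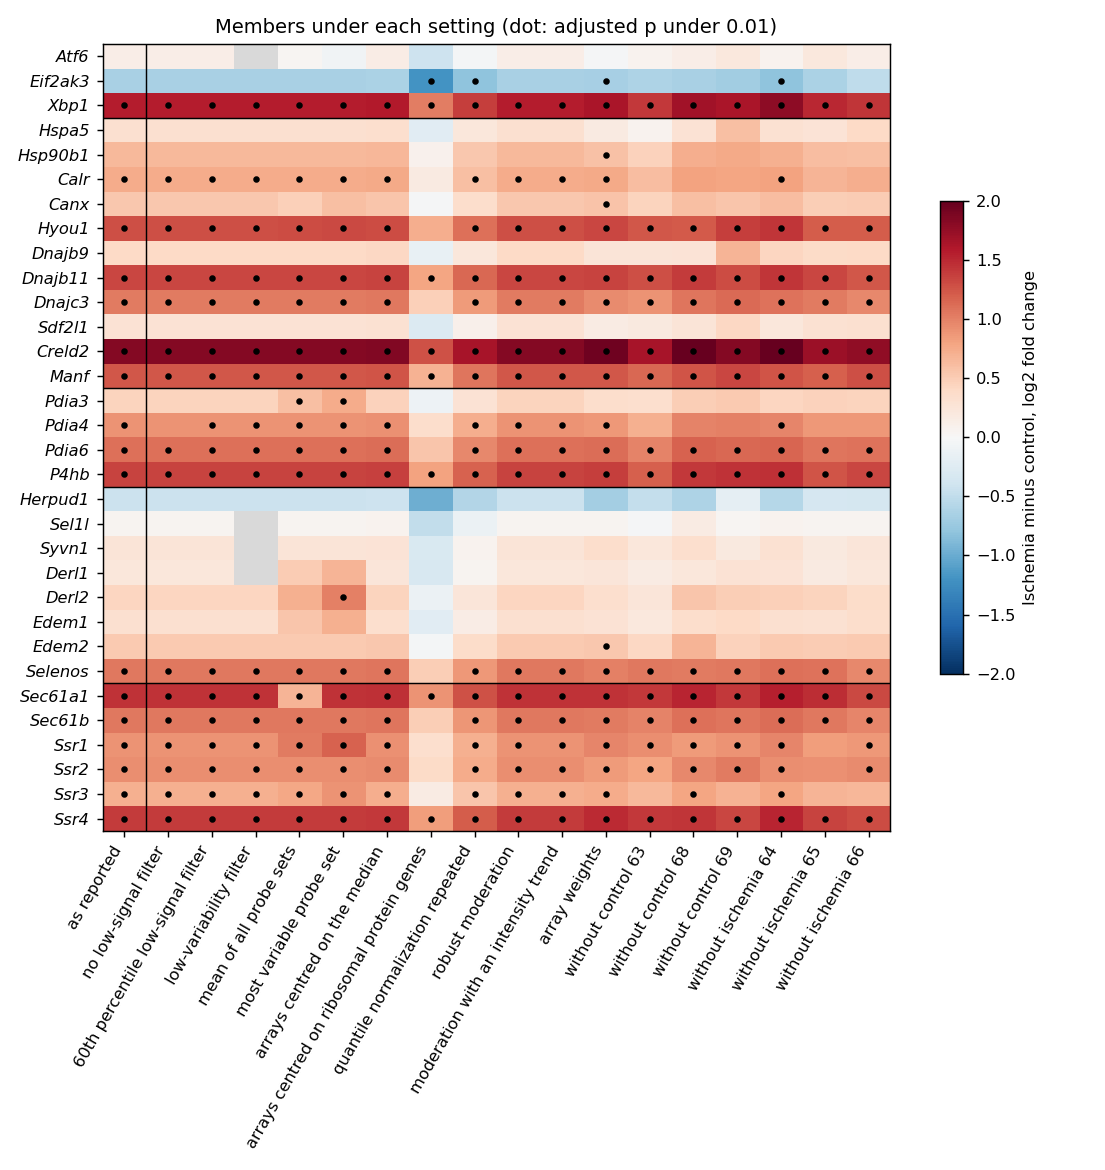
Log2 fold change of each measured member as reported and under 17 other settings of filter, probe set, scaling, moderation and left-out rat (columns), on a colour scale from -2 to 2. A dot marks an adjusted p under 0.01, grey cells were not tested, and horizontal lines separate the roles. *Xbp1*, *Dnajb11*, *Creld2*, *Manf*, *P4hb*, *Sec61a1* and *Ssr4* carry a dot in every column, and the column of ribosomal centring is the palest.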

How the data were processed

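The data were Affymetrix rat genome arrays of cells sorted from 3 control and 3 ischemic rats. The deposited log2 values were made by the authors with RMA (background correction, quantile normalization and probe summary), and the submitters' processing notes also name limma 3.18 and R 3.3.1. They were used as deposited for 31099 probe sets. Of these, 20826 carried 1 gene symbol, 436 several and 9780 none, and 57 were controls. Only probe sets with 1 symbol were named, 20758 of which were found in RefSeq. There is no depth behind an array value, and precision is limited by having 3 rats per group.

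The probe set with the highest mean stood for its gene, and genes above a low-signal cut of 7.16 (40th percentile) on 3 or more arrays were tested. The linear model (limma 3.58.1, R 4.3.3; lmFit, then eBayes) had the group as its only term. Tests were two-sided and p-values were adjusted by Benjamini-Hochberg over 9928 genes. "Rose" and "fell" mean an adjusted p under 0.01. The step was tested on simulated data. Background was the 90th percentile over 42 genes of other tissues. No set test was run. Summed marker levels are the log2 of summed linear values.

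Members, lists and rules were chosen with earlier results of these data known. Every member may be named, and values of all rats are given in each role for members past a log2 fold change of 1 and the test, up to 2 further with the lowest adjusted p and up to 2 of highest mean not past it. Other lists give up to 4 genes past the test with the largest change and up to 2 of highest mean not past it. Alternatives covered filters, probe sets, scaling, moderation, array weights, thresholds and leaving out each rat. Promoter windows came from RefSeq (GRCr8), and coordinates count from 1. CD163-negative cells and other assays of the study were not used here.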

Additional observations from a re-analysis of the deposited data

How the results depend on the processing

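Of the 17 members that rose, 7 kept their call under each of 17 settings of filter, probe set, scaling, moderation, weights and left-out rat, and 5 lost it only under ribosomal centring. *Calr*, *Pdia4*, *Ssr1*, *Ssr2* and *Ssr3* lost it under 2 or more. The number that rose was 7 under ribosomal centring, 0 with a log2 fold change beyond 2, and 12 to 17 without 1 rat. Over all 9928 genes it was 371, 162 and 681 to 1564, against 1664 as deposited. Falls over all genes numbered 2558 under ribosomal centring, against 595. The number of members that fell was 1, *Eif2ak3*, under ribosomal centring, quantile normalization repeated, array weights and an adjusted p under 0.05, and 0 to 1 without 1 rat. The sensor group had 2 calls under those same 4 settings, 0 beyond 2, and 1 to 2 without 1 rat. Under ribosomal centring the chaperones had 3 calls, the isomerases 1, the degradation genes 0 and the translocon 2, and each had 0 beyond 2. The degradation genes had 2 calls with the most variable probe set, array weights and an adjusted p under 0.05. The translocon had 3 calls with a log2 fold change beyond 1, and 3 to 6 without 1 rat. Signs turned under ribosomal centring for *Atf6* (-0.42), *Hspa5* (-0.23), *Canx* (-0.018), *Dnajb9* (-0.15), *Sdf2l1* (-0.27), *Pdia3* (-0.10), *Sel1l* (-0.49), *Syvn1* (-0.30), *Derl1* (-0.32), *Derl2* (-0.12), *Edem1* (-0.23) and *Edem2* (-0.032). They also turned for *Atf6* with the most variable probe set (-0.069), quantile normalization repeated (-0.040) and array weights (-0.026), and for *Sel1l* with quantile normalization repeated (-0.12) and without control rat 63 (-0.024; -0.024 to 0.16 over the rats left out). Ribosomal centring subtracts a shift of all genes by construction, and the cause of the other changes was not tested. The share of rises among all calls was 85.5% without control rat 68. Of 28 genes of the other lists of the pathway that are named with a call, 15 kept it whichever rat was left out. All 32 members lay above the background level of 7.24 on every array. No paired analysis was possible because control and ischemic rats share no number.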

Other observations

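Some effectors of the PERK branch were lower after ischemia without passing the test, and are named here after their values were seen. *Ddit3* (CHOP), a transcription factor of prolonged ER stress, was 11.67, 11.58 and 12.47 in control rats 63, 68 and 69 and 11.19, 10.91 and 10.90 after ischemia, a difference of -0.91 (adjusted p = 0.0178, SE 0.24). *Ppp1r15a* (GADD34), which restores translation, was 11.54, 11.57 and 11.86 in the controls and 11.23, 10.57 and 10.39 after ischemia, a difference of -0.93 (adjusted p = 0.0125, SE 0.22). In both genes every ischemic rat lay below every control. Of the 17 genes of the PERK-ATF4 branch, 5 lay wholly below, 6 wholly above and 6 overlapped. Of all 9928 genes, 1976 lay wholly below, 3547 wholly above and 4405 overlapped. *Atf4* was 12.41, 12.80 and 13.22 in the controls and 12.99, 12.91 and 12.93 after ischemia, with overlapping groups. Control rat 69 was the highest control for *Ddit3*, *Ppp1r15a*, *Atf3* and *Atf4*, as it was for *Hspa5*, *Dnajb9* and *Herpud1*. It was the highest control in 16 of the 32 members and in 3383 of all 9928 genes.

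The transcription factor *Cebpb*, which can pair with CHOP, and the glutathione-degrading *Chac1*, a target of ATF4 and CHOP, rose by 1.08 (adjusted p = 0.00155, SE 0.15) and 1.01 (adjusted p = 0.00212, SE 0.16). Both were higher in every ischemic rat than in every control.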
